A study of Mus musculus with 2 samples.

Results

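The T cell receptor is a pair of variable chains, alpha with beta or gamma with delta, held at the surface by the invariant CD3 chains. Each variable chain is put together in the thymus by joining V, J and, for beta and delta, D segments to a constant region, so that the chains a T cell carries define its lineage. The delta genes lie inside the alpha locus. In mouse lymph nodes most gamma/delta T cells use the gamma segments Trgv1 and Trgv4.

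The receptor segments were read here by 18 probe sets out of 45037 on the array that were not controls, namely every probe set with at least 1 platform gene symbol of the T cell receptor alpha, beta, gamma or delta loci. They carry 11 symbols. Set beside the segments that RefSeq lists for assembly GRCm38.p6, these are 3 of 16 gamma symbols, 6 of 192 alpha symbols, 2 of 52 beta symbols and 0 of 10 delta symbols. The other segments, and constant regions under symbols of their own, were not analysed here.

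The samples were 2 T cell preparations, each on 1 Affymetrix MOE430 2.0 array. One was of naive gamma/delta T cells labelled CD44-negative, and the other of naive CD8+ alpha/beta T cells. Both were taken from lymph nodes of C57BL/6 mice and purified by negative selection, per the labels, which name no genetic change or treatment and do not give the number of mice. Since a group is a single array, there is no replicate, and every ratio compares these preparations without a test. In preparations of many cells, fewer cells that carry a transcript and less transcript per cell cannot be told apart.

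A floor was set at a signal of 243, the higher of the arrays' medians, and lower signals were raised to it before a ratio was taken. Where 1 array was under the floor the ratio is a bound ("at least"), and where both were there is none. A difference of 2-fold or more was called. The only spread available is that between probe sets of the same gene, with a pooled SD of 0.50 on the log2 scale over 3317 genes.

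Of the 18 receptor probe sets, 12 lay above the floor on at least 1 array. Among these, 4 were 2-fold or more higher in the gamma/delta preparation, all of gamma segments. Another 3 were 2-fold or more lower there, all of the alpha segment Trav9d-3, and the remaining 5 read alpha and beta genes and were not called. Of these 5, Tcra and 1 probe set of Trbv1 have only a bound. Over all 26402 probe sets with a ratio, 4.68% were called higher in the gamma/delta preparation and 3.99% lower. The median log2 ratio was at least 5.73 over the 4 gamma probe sets, all of them bounds, against 0.0016 over all probe sets. It was -1.95 over 5 alpha probe sets and at least 0.089 over 3 beta probe sets, with 1 bound among each.

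**Figure D1:**
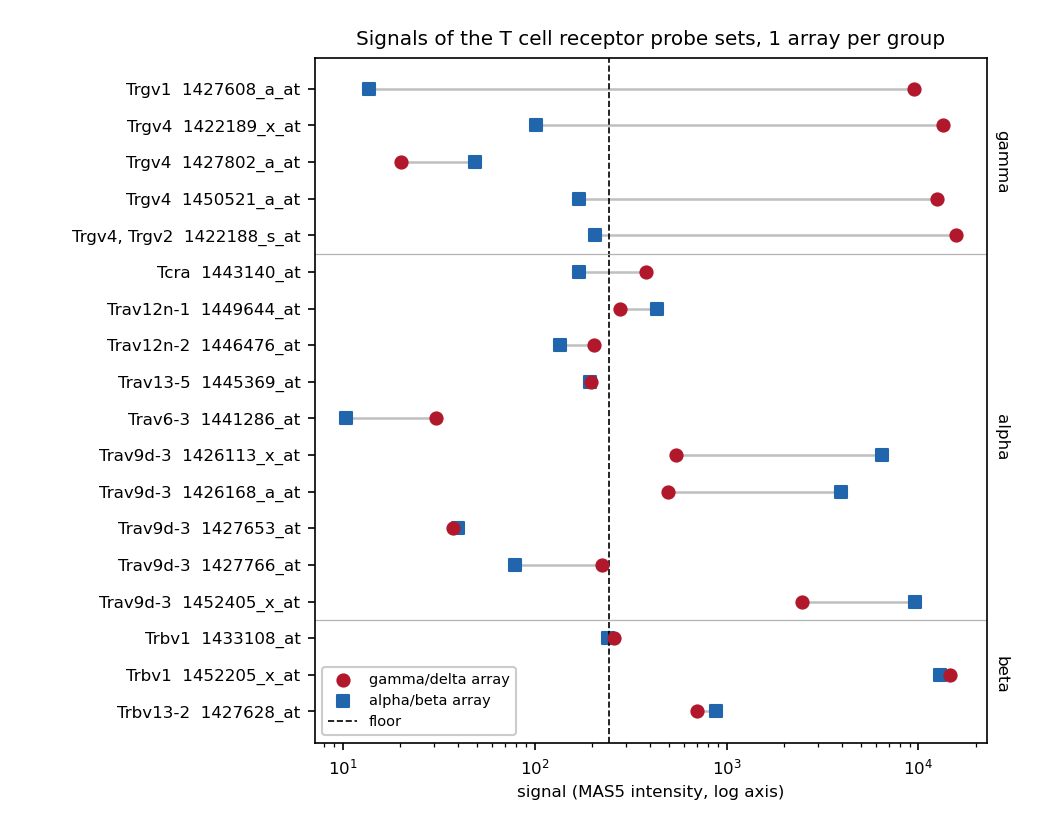
Signal of each of the 18 receptor probe sets (MAS5 intensity, log axis), with red circles for the gamma/delta array and blue squares for the alpha/beta array, grouped by chain, with the floor as a dashed line. In 4 of the 5 gamma probe sets the circle lies far to the right of the floor and the square to its left. The 3 bright probe sets of Trav9d-3 show the opposite order, with both symbols right of the floor.

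Trgv4, a gamma V segment that lies between Trgv7 and Trgv6 on chromosome 13, was read by 3 probe sets of its own. On 1422189_x_at the signal was 13348 in the gamma/delta preparation, against 102 in the alpha/beta preparation, a difference of at least 54.9-fold (log2 ratio of at least 5.78). On 1450521_a_at the signals were 12522 in gamma/delta and 170.4 in alpha/beta, at least 51.5-fold apart. The alpha/beta array stayed under the floor on both, so neither fold has an upper limit. The last, 1427802_a_at, read 20.04 in gamma/delta and 49.1 in alpha/beta, both under the floor, and gave no ratio. The probe sets of Trgv4 thus differ in whether the gamma/delta array shows the transcript.

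A further probe set, 1422188_s_at, lists both Trgv4 and Trgv2, a gamma segment next to Trgv1 in the same locus. Its signal was 15766 in gamma/delta and 207 in alpha/beta, at least 64.8-fold apart. The values do not show which of the listed segments gave the signal. Trgv2 has no probe set of its own among the 18.

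Trgv1, the gamma segment of the other main lymph node population, was read by 1 probe set, 1427608_a_at. Its signal was 9449 in gamma/delta, against 13.7 in alpha/beta, at least 38.8-fold higher (log2 ratio of at least 5.28). Ranked by log2 ratio towards gamma/delta, bounds included, the 4 gamma probe sets held places 3, 4, 5 and 8 among 26402. All 4 also passed 4-fold, which 0.47% of all probe sets did in this direction. Their endings mark probes shared with other sequences or between transcripts, so the values are uncertain for the single segments. The Trgv1 and Trgv4 signals belong to different probes and were not set against each other.

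**Figure D2:**
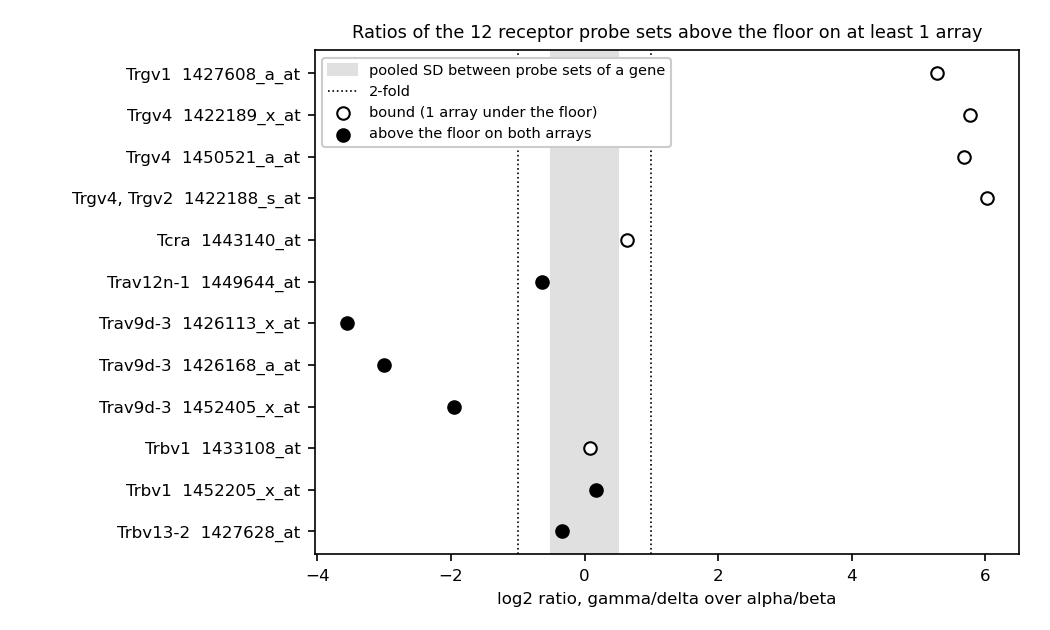
Log2 ratio (gamma/delta over alpha/beta) for the 12 receptor probe sets that have a ratio, with open circles for bounds, dotted lines at 2-fold and a grey band of 1 pooled SD between probe sets of a gene on each side of 0. The gamma probe sets lie between 5.28 and 6.02, those of Trav9d-3 between -3.56 and -1.95, and the beta probe sets, 1 of them a bound, within the band.

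The alpha chain was read by 10 probe sets, 5 of them for Trav9d-3, an alpha V segment on chromosome 14. On 1426113_x_at the signal was 548 in the gamma/delta preparation and 6443 in the alpha/beta preparation, 11.8-fold lower in gamma/delta (log2 ratio -3.56). On 1426168_a_at it was 494 in gamma/delta and 3964 in alpha/beta, 8.02-fold lower. On 1452405_x_at it was 2482 in gamma/delta and 9582 in alpha/beta, 3.86-fold lower. All 3 were above the floor on the gamma/delta array too, and they held places 7, 9 and 52 among all probe sets ranked towards alpha/beta. Their log2 ratios had an SD of 0.82, wider than the pooled 0.50, so the size of the difference depends on the probe set while its direction does not among these 3.

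The other probe sets of Trav9d-3 were dim on both arrays. The signals of 1427653_at were 37.7 in gamma/delta and 40.1 in alpha/beta, and those of 1427766_at were 224 in gamma/delta and 78.9 in alpha/beta. Neither has a ratio. RefSeq names 11 segments of the Trav9 family, and segments of a family are alike in sequence, so the values are uncertain for the single segment. The bright probe sets of Trav9d-3 also have endings that mark shared probes. Whether they read sequences outside the family was not tested.

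Cd8a and Cd8b1, the coreceptor chains of CD8+ T cells, also left signal above the floor on the gamma/delta array. The brightest Cd8a probe set read 731 in gamma/delta and 8852 in alpha/beta, and the 1 probe set of Cd8b1 read 382 in gamma/delta and 2193 in alpha/beta. Of the 5 probe sets of Cd8a, 3 were under the floor on the gamma/delta array, with signals from 4.92 to 42.5. The part of CD8+ alpha/beta cells in the gamma/delta signal of Trav9d-3 was not tested.

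The remaining alpha probe sets gave little signal in either preparation. Trav12n-1 read 277 in gamma/delta and 433 in alpha/beta, a log2 ratio of -0.64. Tcra, the symbol of the whole alpha locus and not of one segment, read 379 in gamma/delta and 170.3 in alpha/beta, a log2 ratio of at least 0.64. Neither was called, but the value of Tcra is a bound with no upper limit, and without a floor its log2 ratio was 1.15, past 2-fold. The CD8+ alpha/beta preparation, whose receptor holds an alpha chain, lay under the floor on the 1 probe set of Tcra.

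Trav12n-2, Trav13-5 and Trav6-3 were under the floor on both arrays. Signals of Trav12n-2 were 204 in gamma/delta and 136 in alpha/beta. Those of Trav13-5 were 196 in gamma/delta and 195 in alpha/beta, and those of Trav6-3 were 30.6 in gamma/delta and 10.4 in alpha/beta. For these 3 segments no difference could be measured on these arrays.

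No beta probe set was called. Trbv1, the first V segment of the beta locus on chromosome 6, gave 14596 in gamma/delta, against 12892 in alpha/beta, on 1452205_x_at, a log2 ratio of 0.18. Its other probe set, 1433108_at, read 259 in gamma/delta and 240.2 in alpha/beta, on either side of the floor, with a log2 ratio of at least 0.089. Trbv13-2, a beta segment, read 698 in gamma/delta and 882 in alpha/beta, a log2 ratio of -0.34. The ratios of 1452205_x_at and Trbv13-2 were smaller than the pooled SD between probe sets of a gene, and the bright Trbv1 probe set read far above the floor in both preparations. Trbv13-2 is 1 of 3 segments of its family in RefSeq, while Trbv1 stands alone in its own. The bright probe set of Trbv1 has an ending that marks probes shared with other sequences. Its values are therefore uncertain for the single segment, and the other Trbv1 probe set read near the floor on both arrays.

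**Figure D3:**
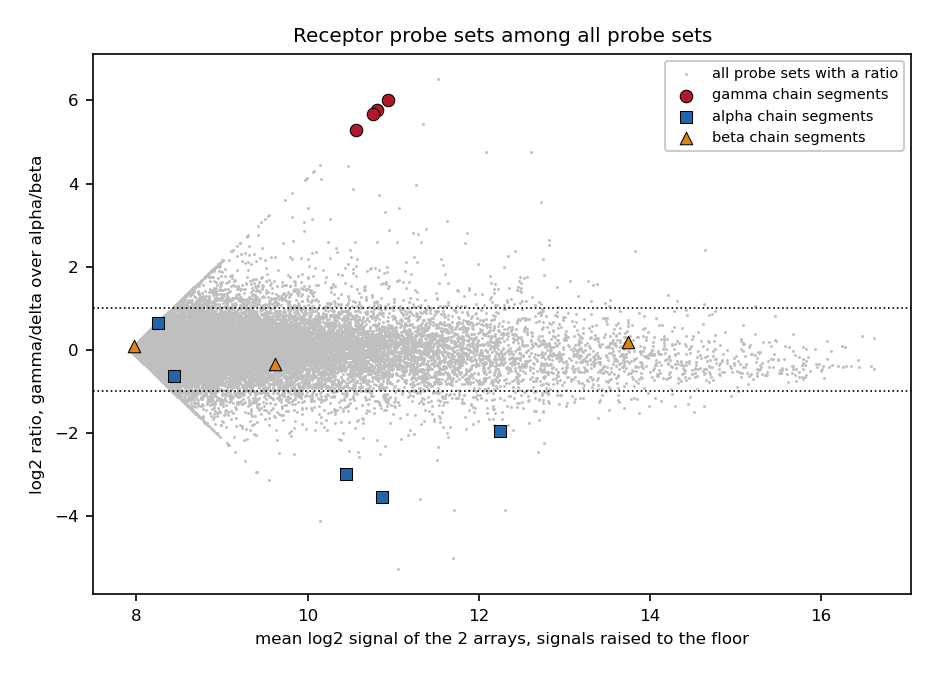
Log2 ratio (gamma/delta over alpha/beta) (vertical) against the mean log2 signal of both arrays after signals were raised to the floor (horizontal) for all 26402 probe sets with a ratio (grey), with gamma (red circles), alpha (blue squares) and beta (orange triangles) segments marked and dotted lines at 2-fold. The gamma points lie at the upper edge of the cloud, 3 alpha points towards its lower edge, and the beta points inside it.

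In Affymetrix naming, the endings _x_at and _s_at mark probes shared with other sequences or genes, and _a_at marks probes shared by transcripts of a gene. All 7 called receptor probe sets have such an ending, out of 9 receptor probe sets that do, 8 of them with a ratio. Of the 9 receptor probe sets that end in _at alone, 4 had a ratio, 2 of them bounds, and 0 were called. Over the whole array, 10.7% of the probe sets with such an ending and a ratio differed by 2-fold or more in either direction, and 8.1% of those that end in _at alone. What the shared probes contribute to the receptor values was not tested.

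The genes that complete the receptor, and the enzymes that recombine its segments, were read by 24 probe sets of 15 genes out of 16 listed. Of the 20 with a ratio, 7 were called higher in the gamma/delta preparation and 1 lower, and the median log2 ratio was 0.22. The 7 higher calls were probe sets of Cd3g, Trat1, Dntt and Xrcc5 only, so some of them share a gene. The shares over all probe sets were 4.68% higher and 3.99% lower, so the 1 lower call is near the background. Among the invariant chains, Cd3g read 8062 in gamma/delta and 3486 in alpha/beta, 2.31-fold higher. Cd3e read 59573 in gamma/delta and 34224 in alpha/beta, a log2 ratio of 0.80. Cd3d read 13551 in gamma/delta and 13862 in alpha/beta, a log2 ratio of -0.033. Transcripts of these 3 chains lay above the floor in both preparations, and of their probe sets that of Cd3g alone passed 2-fold.

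Cd247, which encodes the zeta chain that carries the receptor's signal inwards, was read by 4 probe sets with log2 ratios from -1.13 to -0.036. Of these 1452539_a_at alone reached 2-fold, with a signal of 319 in gamma/delta, against 699.6 in alpha/beta. The brightest, 1426396_at, read 2415 in gamma/delta and 2476 in alpha/beta.

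Trat1, a transmembrane adaptor that associates with the receptor complex, was called higher in the gamma/delta preparation on both of its probe sets. On 1427532_at its signal was 2084 in gamma/delta and 451 in alpha/beta, 4.62-fold higher. On 1437561_at it was 588 in gamma/delta and 243.7 in alpha/beta, 2.41-fold higher, with the alpha/beta signal barely above the floor. Ptcra, the partner of the beta chain before an alpha chain is made, read 42.8 in gamma/delta and 267 in alpha/beta, a log2 ratio of at most -0.14 since the gamma/delta signal was under the floor.

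Of the recombination genes, Dntt, the terminal transferase that adds bases at the joints between segments, was called higher in the gamma/delta preparation on all 3 probe sets, by 27.0-, 26.9- and 6.09-fold. Its signals were 22604, 32499 and 2253 in gamma/delta, against 836, 1207 and 370.2 in alpha/beta. Rag1 and Rag2, which cut the segments, were below the floor in both preparations, with signals of 72.7 and 82.0 in gamma/delta, against 92.2 and 137 in alpha/beta. Xrcc5, a subunit of the Ku complex that repairs the cut ends, read 979 in gamma/delta and 234 in alpha/beta, at least 4.02-fold higher. Its Ku partner Xrcc6 had log2 ratios of -0.13 and at most -0.14 on its 2 probe sets. Of the 14 probe sets of recombination genes, 10 had a ratio, and those of Dntt and Xrcc5 were the 4 that passed 2-fold.

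**Figure D4:**
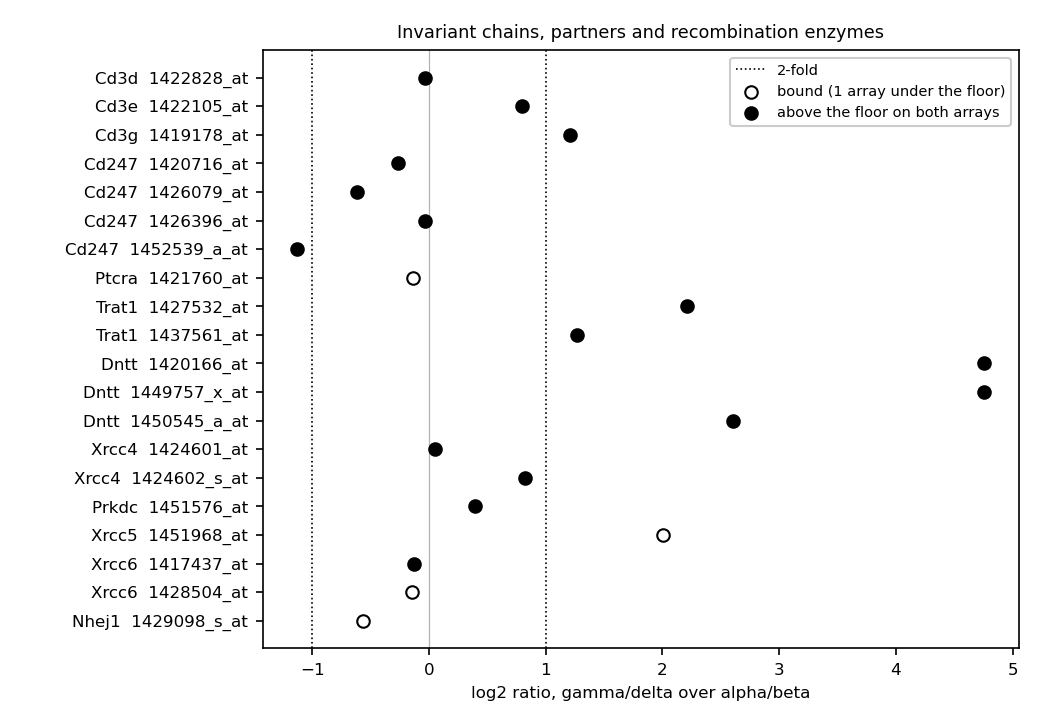
Log2 ratio (gamma/delta over alpha/beta) for the 20 probe sets with a ratio among invariant chains, receptor partners and recombination enzymes, with open circles for bounds and dotted lines at 2-fold. The 3 probe sets of Dntt lie furthest to the right, at 2.61 to 4.76, and 1 probe set of Cd247 lies left of the 2-fold line, at -1.13.

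Outside the receptor genes, Sox13 and Cd163l1, genes of the gamma/delta lineage, read 1087 and 9471 in gamma/delta, against 49.6 and 12.7 in alpha/beta, on their brightest probe sets. Of 3 measured NK cell markers and both CD4 T cell markers, 0 lay above the floor on either array. Of 5 measured myeloid markers, 0 lay above it in gamma/delta and 1 in alpha/beta, and the 1 measured erythroid marker lay under it on both arrays. Of 7 measured B cell markers, 4 lay above it in gamma/delta and 3 in alpha/beta, with summed highest signals of 3226 in gamma/delta and 2439 in alpha/beta. Ighm, the immunoglobulin heavy chain, gave the 1 B cell call, with 1300.03 in gamma/delta and 563 in alpha/beta on 1 probe set. Another Ighm probe set, the brightest of the gene in alpha/beta, read 1025 in gamma/delta and 789 in alpha/beta and was not called. A further Ighm probe set went the other way, with 333 in gamma/delta and 406 in alpha/beta, and was not called. The remaining Ighm probe sets were under the floor on both arrays. Ms4a1 read 858 in gamma/delta and 616 in alpha/beta, Cr2 read 519.8 in gamma/delta and 436 in alpha/beta, and Cd79a and Cd74 were under the floor on both. The 3′ to 5′ signal ratio of actin, which reflects RNA integrity, was 6.99 in gamma/delta and 3.12 in alpha/beta, while that of Gapdh was 3.06 in gamma/delta and 3.24 in alpha/beta, and that of the transferrin receptor 3.97 in gamma/delta and 4.47 in alpha/beta. The part of these in the receptor values was not tested.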

How the data were processed

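Total RNA of each preparation was labelled by the standard Affymetrix 1-cycle protocol, per the labels' protocols. The deposited values are linear signal intensities, 1 for each probe set on an array. According to the submitters' processing notes, the authors used MAS5 in Expression Console 1.0 (Affymetrix). The trimmed mean over all probe sets (2% left out at each end) was 500.003 on both arrays, so they had been scaled alike, and no further scaling was done. Because MAS5 corrects each signal for mismatch probes, weak intensities scatter widely and carry little order. Scanner files and detection calls were not used here. The table has 45101 probe sets, of which 64 are controls and were left out. Platform annotation gave 34945 of the rest 1 symbol, 932 several and 9160 none. The values have no genome build, and RefSeq served for names, chromosomes and neighbours only.

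Every receptor probe set above the floor on at least 1 array was named, and of the other receptor complex and recombination genes the CD3 chains and those at 2-fold or more. The other receptor probe sets, Ptcra, Rag1, Rag2, Xrcc6 and the marker genes were named after their values were seen. The members and lists were chosen with earlier results of these data known. Ratios and calls were computed in Python 3.11.15 with pandas 2.3.3 and tested on simulated data. Alternatives were median scaling, quantile normalization, a loess between arrays (span 0.3, statsmodels 0.14.6), floors at the 30th and 70th percentiles, no floor, a 4-fold call, and subsets of probe sets. With 1 array per group the number of arrays limits the precision, and no p-value was computed.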

Additional observations from a re-analysis of the deposited data

How the results depend on the processing

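Under median scaling, quantile normalization, loess and floors at the 30th and 70th percentiles, the same 4 gamma probe sets remained 2-fold or more higher in the gamma/delta preparation and the same 3 of Trav9d-3 lower, and no receptor probe set with a ratio changed sign. A floor at the 70th percentile put the bounds on the gamma log2 ratios between 4.40 and 5.14 and left 3 receptor probe sets with no ratio. A floor at the 30th percentile took Tcra past 2-fold, with a log2 ratio of 1.15. With no floor 7 receptor probe sets were called higher in gamma/delta and 4 lower, as against 17.4% and 16.2% of all probe sets. Those added were Tcra, Trav6-3 and 1427766_at of Trav9d-3, higher, and 1427802_a_at of Trgv4, lower, each with at least 1 signal under the floor. With probe sets that end in _at alone, 0 were called higher and 0 lower, because all 7 called ones have another ending. Receptor probe sets with 1 symbol gave 3 higher and 3 lower, as against 5.20% and 4.37% of all such probe sets, and the 4-fold call gave 4 higher and 2 lower, as against 0.47% and 0.19% of all probe sets. Of the other receptor complex and recombination probe sets, 7 of 20 were called higher in gamma/delta as reported. Quantile normalization and loess each gave 8 of 20 (4.44% and 4.63% of all probe sets). Higher calls were 7 of 22 under the 30th percentile floor (7.80%) and 6 of 15 under the 70th (3.88%). With no floor they were 7 of 24 (17.4%), and at 4-fold 5 of 20 (0.47%). Of the same probe sets, 1 of 20 was called lower in gamma/delta as reported. This was 4 of 22 under the 30th percentile floor (7.23% of all probe sets), 4 of 24 with no floor (16.2%, about the same share), 0 of 15 under the 70th percentile floor (3.66%) and 0 of 20 at 4-fold (0.19%). No paired analysis was possible because each group has 1 array.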
